A study of Homo sapiens with 4 samples.

Results

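The 41 genes described here encode ligands, receptors, SMADs, feedback regulators and target genes of transforming growth factor-β (TGF-β) and bone morphogenetic protein (BMP) signalling, together with transcription factors of epithelial-mesenchymal transition (EMT) and N-cadherin. They were chosen by name, with earlier results of these data known, out of 57768 gene entries measured by RNA-seq in 4 libraries of cells labelled HepG2, an established human liver cancer cell line. The libraries comprised 2 of WT cells and 2 of C/EBPβ enh-/- cells, in which CRISPR/Cas9 was used to delete the enhancer that acts on CEBPB, the gene of the transcription factor C/EBPβ. All cells grew in DMEM with fetal bovine serum, and no other agent, time point or allele was given for either genotype. The sources used here do not say whether the libraries of a genotype came from separate cultures or clones, so the p-values below measure only the spread between these libraries. The comparison asks how the levels of these genes differed between cells with and without the enhancer.

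TGF-β family ligands are secreted dimers that bring together type I and type II receptor kinases on the cell surface. The activated type I receptor phosphorylates receptor-regulated SMADs, SMAD2 and SMAD3 for TGF-β and activin and SMAD1 and SMAD5 for BMPs, which join SMAD4 and act on transcription in the nucleus. TGF-β restrains the growth of normal liver cells, and in liver cancer cells it is also known for driving EMT, in which SNAIL, TWIST and ZEB factors repress epithelial genes.

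The labelled cell type was checked against its markers. Of 21 genes typical of liver cells, 20 had an FPKM (fragments per length of transcript, scaled to the fragments of the library) below 1 in all 4 libraries and 15 were below 0.1. ALB, AFP, APOC3 and FOXA2 were picked from this list after their values were seen. ALB (albumin) did not exceed 0.0553, AFP (α-fetoprotein) did not exceed 0.0605, and APOC3 and FOXA2 were listed at 0. The highest liver marker, the transcription factor FOXA1, had an FPKM of 2.09 and 1.74 in WT libraries 1 and 2 and of 1.34 and 1.23 in the corresponding C/EBPβ enh-/- libraries. The receptor ASGR1 was at 0.0726 to 0.339. The 21 liver markers had a summed FPKM of 2.81 to 3.06 in WT and of 2.11 to 2.41 without the enhancer. The label HepG2 was thus not borne out by these liver genes, and the cells are named here by their genotype. CEBPB itself was at an FPKM of 30.6 and 19.2 with the enhancer present, against 12.4 and 11.8 without it. The genotypes did not overlap for CEBPB, but limma gave an adjusted p of 0.125 (log2 fold change −0.94, standard error 0.27), above the 0.05 used as the threshold.

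Differences between genotypes are given as log2 fold changes, C/EBPβ enh-/- (hereafter enh-/-) minus WT, on log2(FPKM + 1), a scale that understates the change of low genes. Of the 41 members, 37 reached a mean FPKM of 1 and were tested, among 12491 tested genes in all. LTBP2, INHBA, BMP4 and GREM1 did not reach that level, BMP4 being the highest of them with a mean of 0.663. FST and SNAI1 reached it only through the enh-/- libraries, their WT means being 0.545 and 0.813, so a difference was built into their entry. None of the 37 members passed the threshold in limma after adjustment over all tested genes (0 lower and 0 higher), where 1.46% of all tested genes did (151 lower and 31 higher). At an unadjusted p under 0.05, 4 members were lower (TGFB2, LTBP1, TGFBR3 and TWIST1) and 2 were higher (BMP2 and FST), against 20.8% of all tested genes in either direction. The median log2 fold change of the 37 members was −0.14, with quartiles of −0.41 and 0.12, and that of all tested genes was −0.14, with quartiles of −0.47 and 0.16. Because this contrast was in view when the members were chosen, these counts describe them and support nothing further. In bulk RNA, fewer cells that express a gene and less of its RNA per cell cannot be told apart.

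The libraries of the genotypes were next compared one by one. In 13 members both enh-/- libraries lay below both WT libraries, as did 37.5% of all tested genes. In 4 members, BMP2, FST, TGFBR1 and SNAI1, both lay above, as did 15.1% of all tested genes, and in the other 20 members the genotypes overlapped. Centring each library on its median moved the median of all genes by 0.17 on the log2 scale. With centring, 8 members lay below in both enh-/- libraries (TGFB1, TGFB2, LTBP1, LTBP3, TGFBR3, ACVR2A, TWIST1 and CDH2), against 25.2% of all tested genes. Likewise 9 members lay above (BMP2, FST, TGFBR1, SMAD4, SMURF1, SKI, PMEPA1, SNAI1 and ZEB2), against 28.1% of all tested genes. With the libraries rescaled to the same total, 14 members (37.8%) lay below and 6 (16.2%) above, against 36.2% and 16.4% of all tested genes. The members' shares were near those of all genes under each of these scalings.

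**Figure D1:**
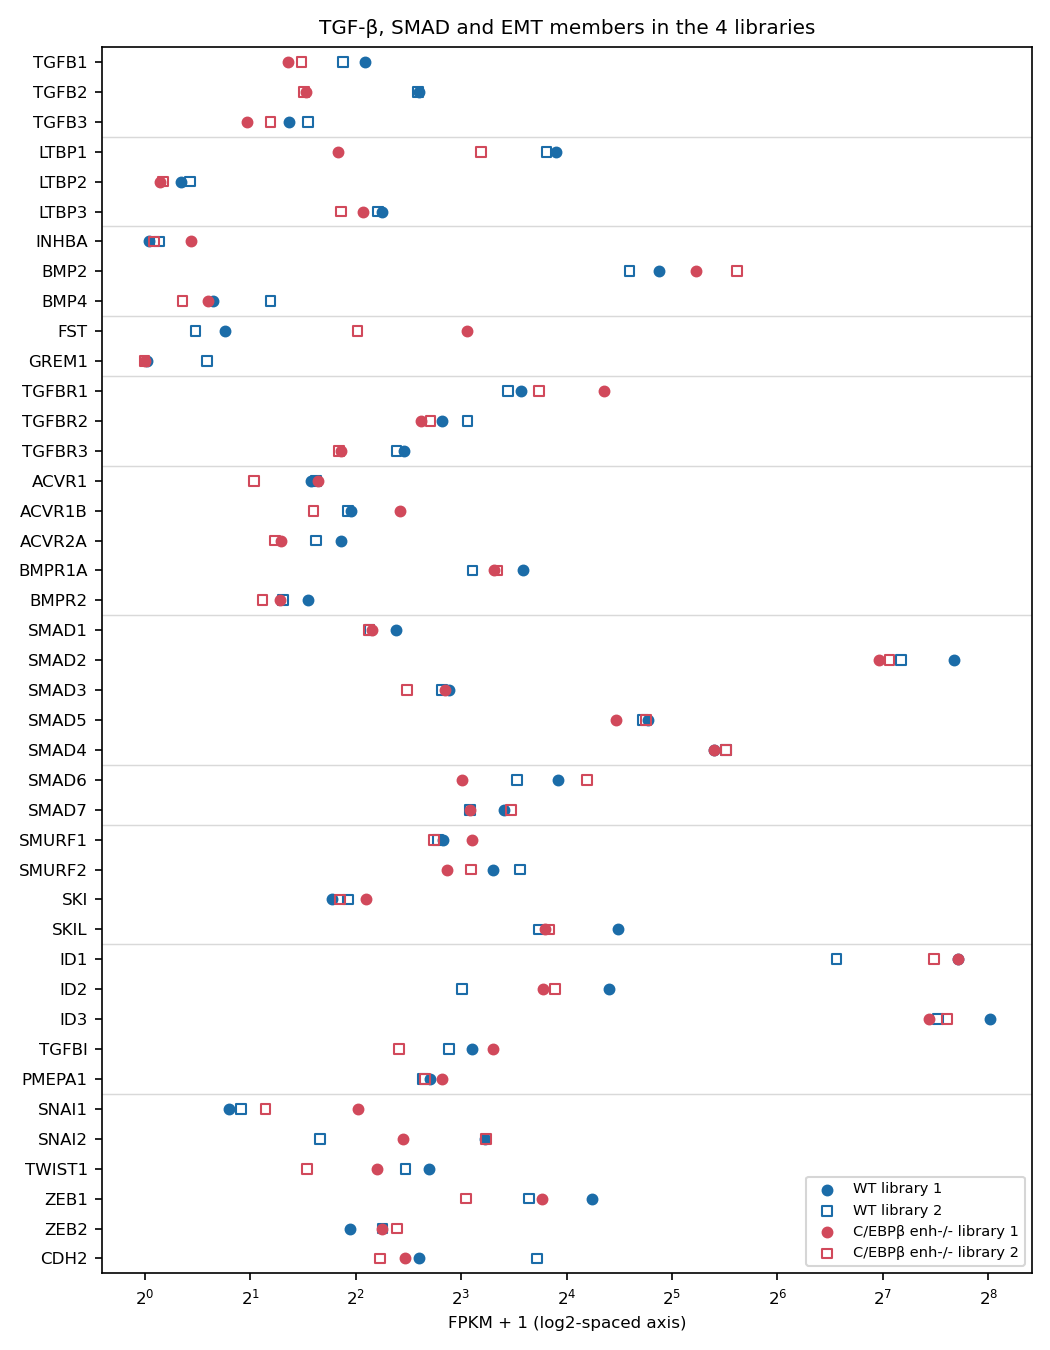
FPKM + 1 of the 41 members, on a log2-spaced axis, in WT libraries 1 and 2 (blue) and C/EBPβ enh-/- libraries 1 and 2 (red), grouped by role. SMAD2, ID1 and ID3 have the highest levels, TGFB2 shows the tightest agreement within each genotype beside a clear gap between genotypes, and LTBP2, INHBA, BMP4 and GREM1 lie at the left edge.

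Promoter sequence was examined for the members, as the 250 bases before the annotated start in RefSeq on GRCh38.p14, which held 36 of the 41 members (BMP2, SKI, SNAI1, SNAI2 and TWIST1 were not in the table). The 3 members whose log2 fold change was at least 1 in size are shown, 5′ to 3′ on the strand of the gene, each ending at the base before the start. They lie at chr1:218345086-218345335 (TGFB2), chr2:32946703-32946952 (LTBP1) and chr5:53480379-53480628 (FST), all on the plus strand. Capitals mark the SMAD box CAGAC or its reverse complement GTCTG, and the E-box CAGGTG or its reverse complement CACCTG, a sequence bound by SNAIL and ZEB factors.
TGFB2: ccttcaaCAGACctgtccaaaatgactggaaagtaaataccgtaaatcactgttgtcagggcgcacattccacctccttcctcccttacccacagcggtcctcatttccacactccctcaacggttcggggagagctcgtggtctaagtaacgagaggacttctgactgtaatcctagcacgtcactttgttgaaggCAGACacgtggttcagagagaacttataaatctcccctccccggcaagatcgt
LTBP1: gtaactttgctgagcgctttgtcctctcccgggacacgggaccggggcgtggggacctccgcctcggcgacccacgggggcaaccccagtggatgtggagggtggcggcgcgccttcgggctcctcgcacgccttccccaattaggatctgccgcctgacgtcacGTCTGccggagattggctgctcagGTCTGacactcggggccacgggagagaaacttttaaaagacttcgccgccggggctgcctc
FST: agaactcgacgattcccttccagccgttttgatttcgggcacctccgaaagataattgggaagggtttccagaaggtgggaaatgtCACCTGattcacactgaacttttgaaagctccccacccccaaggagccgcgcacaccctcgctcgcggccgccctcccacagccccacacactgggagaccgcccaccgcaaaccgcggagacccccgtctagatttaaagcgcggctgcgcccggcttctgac
The TGFB2 window had the SMAD box at bases −243 to −239 and −53 to −49 from the start, a GC content of 50.4% and 11 CpG. In LTBP1 the SMAD box lay at −85 to −81 and −61 to −57, with a GC content of 66.4% and 24 CpG. The FST window had the E-box at −164 to −159, with a GC content of 60% and 20 CpG.

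The same letters were searched on both strands in all 27305 promoters of that length. The SMAD box CAGAC was in 13 of 36 members and in 37.8% of all promoters, so the members were near the general share. The GC-rich SMAD element GGCGCC was in 12 members and 16.1% of promoters, and the palindrome GTCTAGAC was in 1 member, SMAD6, and 0.176% of promoters. The E-box CAGGTG was in FST, ZEB1, LTBP3 and SMURF2, and in 17.5% of promoters. For C/EBP factors, the core TTGCNNAA was in SMAD6 and SMAD4 and in 9.13% of promoters. The members' windows had a median GC content of 68.2% and a median of 23.5 CpG, against 58% and 11 over all promoters. The element GGCGCC holds only G and C, and what part GC content has in its larger share among members was not tested. A match is a description of letters in this window and says nothing of binding.

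All 3 TGF-β ligands had lower values in both enh-/- libraries than in both WT libraries as deposited, as did 37.5% of all tested genes, and TGFB3 overlapped once the libraries were centred. TGFB2 (chromosome 1 from 218518678 to 218617961, plus strand, GRCh37) had an FPKM of 5.05 and 5.04 in WT and of 1.88 and 1.85 in enh-/- libraries. The libraries of one genotype were almost equal and the genotypes were far apart, the WT mean being 2.70 times the enh-/- mean. The mean FPKM was 5.05 ± 0.00624 (SD, n = 2) in WT and 1.87 ± 0.0197 (SD, n = 2) in enh-/- cells, and the log2 fold change by limma was −1.08 with a standard error of 0.23 and an adjusted p of 0.0738. Leaving out any single library moved the value of TGFB2 only between −1.08 and −1.07. Its antisense RNA TGFB2-AS1 reached at most 0.362 in any library. Over all alternatives the adjusted p of TGFB2 ran from 0.0395 to 0.379 (limma). It was under 0.05 only with protein-coding genes alone, a fit added after seeing the data, and was 0.0538 in the other added fit, 0.113 with rescaling, 0.13 with centring and 0.104 with the replicate block.

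TGFB1, the most widely expressed ligand of the family, had an FPKM of 3.25 and 2.69 in WT and of 1.56 and 1.80 in enh-/- libraries. TGFB3 stood at 1.58 and 1.93 in WT and at 0.963 and 1.29 in enh-/- libraries. Neither gene overlapped between genotypes, with log2 fold changes of −0.56 (standard error 0.25, adjusted p = 0.262, limma) for TGFB1 and −0.38 (standard error 0.27, adjusted p = 0.471, limma) for TGFB3. TGFB1 shares exonic bases with HNRNPUL1 on the opposite strand, which had an FPKM of 62.2 to 65.1, and the sources used here do not say whether strand was kept. The part of these antisense reads in the values of TGFB1 was not tested. TGFB3 was near the median log2 fold change of chromosome 14, where it lies (−0.39), while TGFB1 was apart from that of chromosome 19 (0.02). What part the chromosomes have in these values was not tested.

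Latent TGF-β binding proteins hold the secreted ligand in the extracellular matrix. LTBP1 (chromosome 2 from 33172020 to 33624576, plus strand, GRCh37) had an FPKM of 13.9 and 13.03 in WT and of 2.56 and 8.12 in enh-/- libraries. Both enh-/- values were below WT, but they were far from each other. LTBP1 had a log2 fold change of −1.34 with a standard error of 0.42 (adjusted p = 0.149, limma), and it was −0.66 without enh-/- library 1 and −2.02 without library 2. Over the 795 genes tested on chromosome 2 the median log2 fold change was −0.44, and what part this has in LTBP1 was not tested. The other members on chromosome 2 were at −0.48 (ACVR2A), −0.26 (ACVR1), −0.23 (BMPR2), 0.13 (ID2) and 0.22 (ZEB2). LTBP3 had an FPKM of 3.77 and 3.64 in WT and of 3.20 and 2.64 in enh-/- libraries (log2 fold change −0.27, adjusted p = 0.559, limma). LTBP2 was near the lower limit of the data, at 0.271 and 0.345 in WT and at 0.109 and 0.131 in enh-/- libraries.

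Of the 3 activin and BMP ligands among the members, BMP2 had the highest FPKM in every library. BMP2, a ligand that signals through SMAD1 and SMAD5, had an FPKM of 28.5 and 23.2 in WT and of 36.5 and 47.9 in enh-/- libraries. Both enh-/- libraries exceeded both WT libraries, the log2 fold change being 0.68 with a standard error of 0.24 (adjusted p = 0.178, limma). BMP4, a related ligand, had 0.567 and 1.29 in WT and 0.513 and 0.283 in enh-/- libraries. INHBA, which encodes the activin A subunit, had 0.0315 and 0.1001 in WT and 0.356 and 0.0616 in enh-/- libraries. Among the tested ligands of the member list alone, the order by mean FPKM was BMP2, TGFB2, TGFB1 and TGFB3. That order held in each library, and TGFB2 and TGFB1 were close in enh-/- library 2, at 1.85 and 1.80.

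FST had the largest log2 fold change of the 37 tested members. FST encodes follistatin, a secreted protein that binds and neutralises activins and some BMPs, and lies on chromosome 5 from 52776456 to 52782964 (plus strand, GRCh37). FST stood at an FPKM of 0.693 and 0.397 in WT, against 7.34 and 3.05 in enh-/- libraries. The mean FPKM was 0.545 ± 0.209 (SD, n = 2) in WT and 5.20 ± 3.04 (SD, n = 2) in enh-/- cells, a ratio of 9.53. FST was low in both WT libraries, and the enh-/- libraries differed from each other by 1.04 on the log2 scale. As a description of a gene that entered the fit through its high group, the log2 fold change in limma was 1.92, with a standard error of 0.38 and an adjusted p of 0.0676, and it ranged from 1.40 to 2.44 when a library was left out. Over all alternatives the adjusted p of FST ran from 0.0277 to 0.674 (limma), and the values under 0.05 came from the fits added after seeing the data, so they lend FST no support. The other secreted antagonist, GREM1 (gremlin, which binds BMPs), had 0.0186 and 0.507 in WT and was listed at 0 in both enh-/- libraries.

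**Figure D2:**
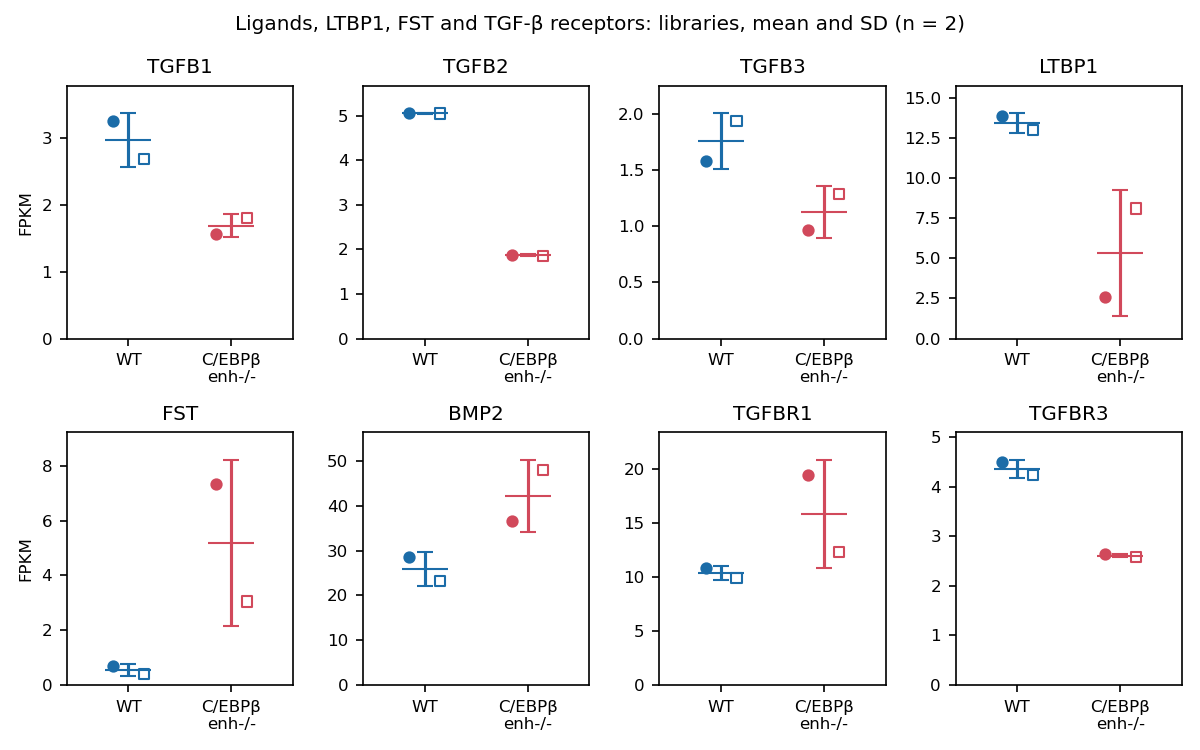
FPKM of TGFB1, TGFB2, TGFB3, LTBP1, FST, BMP2, TGFBR1 and TGFBR3 in each library (circle, library 1 and square, library 2), with the mean and SD (n = 2) per genotype, each panel on its own axis from 0. The SD bars are narrow for TGFB2 and TGFBR3, and wide in the C/EBPβ enh-/- cells for LTBP1 and FST, where the 2 libraries stand apart.

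The TGF-β receptors did not share 1 direction. TGFBR1, the type I receptor kinase, had an FPKM of 10.9 and 9.90 in WT and of 19.4 and 12.3 in enh-/- libraries (log2 fold change 0.54, standard error 0.27, adjusted p = 0.303, limma). TGFBR2, the type II receptor that binds the ligand first, had 6.08 and 7.34 in WT and 5.16 and 5.55 in enh-/- libraries (log2 fold change −0.28, adjusted p = 0.526, limma). TGFBR3, or betaglycan, a coreceptor that presents TGF-β2 to the signalling receptors, had 4.49 and 4.24 in WT and 2.63 and 2.58 in enh-/- libraries. As for TGFB2, the TGFBR3 values within a genotype lay close together, with a log2 fold change of −0.57 and a standard error of 0.23 (adjusted p = 0.221, limma). With each library centred, TGFBR2 overlapped between genotypes while TGFBR1 and TGFBR3 still did not.

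Of the 5 activin and BMP receptors, ACVR2A and BMPR2 lay below in both enh-/- libraries as deposited, beside 37.5% of all tested genes, and BMPR2 overlapped once the libraries were centred. ACVR2A, an activin type II receptor, had an FPKM of 2.65 and 2.08 in WT and of 1.45 and 1.36 in enh-/- libraries (log2 fold change −0.48, adjusted p = 0.337, limma). It shares exonic bases with ORC4 on the opposite strand, at 13.5 to 15.5, and its log2 fold change was near the chromosome 2 median of −0.44. What part either has in ACVR2A was not tested. BMPR2, the BMP type II receptor, had 1.93 and 1.48 in WT and 1.43 and 1.17 in enh-/- libraries (log2 fold change −0.23, adjusted p = 0.668, limma). The type I receptors ACVR1, ACVR1B and BMPR1A overlapped between genotypes as deposited, with log2 fold changes of −0.26, 0.07 and −0.02. With rescaling to the same total ACVR1 lay below in both enh-/- libraries, beside 36.2% of all tested genes. For ACVR1 and ACVR1B the enh-/- libraries differed most from each other, at 2.13 and 1.05 for ACVR1 and at 4.37 and 2.03 for ACVR1B. BMPR1A was the highest of these receptors, at 11.0 and 7.63 in WT and at 8.94 and 9.17 in enh-/- libraries.

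Of the 5 SMADs that carry the signal, SMAD1, SMAD3, SMAD4 and SMAD5 overlapped between genotypes, and SMAD2 lay below in both enh-/- libraries as deposited, beside 37.5% of all tested genes. With centring SMAD2 overlapped and SMAD4 lay above in both enh-/- libraries, beside 28.1% of all tested genes. With rescaling to the same total SMAD2 overlapped and SMAD3 lay below in both enh-/- libraries, beside 36.2% of all tested genes. SMAD4, the common partner of all receptor-regulated SMADs, had an FPKM of 41.2 and 44.7 in WT and of 41.05 and 44.6 in enh-/- libraries, which gave a log2 fold change of −0.01 with a standard error of 0.21 (adjusted p = 0.991, limma). SMAD2, a carrier of TGF-β and activin signals, was the highest of the SMADs, at 203 and 143 in WT and at 124 and 133 in enh-/- libraries. Its genotypes did not overlap, but the gap between the WT libraries exceeded that between the genotype means (log2 fold change −0.41, standard error 0.24, adjusted p = 0.379, limma). SMAD3, which acts beside SMAD2, had 6.38 and 6.05 in WT and 6.19 and 4.60 in enh-/- libraries (log2 fold change −0.19, adjusted p = 0.696, limma). For the BMP branch, SMAD5 had 26.4 and 25.5 in WT and 21.2 and 26.0 in enh-/- libraries, and SMAD1 had 4.22 and 3.39 in WT and 3.46 and 3.37 in enh-/- libraries. Both overlapped, with log2 fold changes of −0.14 for SMAD5 and −0.12 for SMAD1. SMAD1-AS1, on the opposite strand of SMAD1, was measured at 3.45 to 4.18. The 5 genes had a median of −0.14, equal to that of all tested genes at this precision, and SMAD1, SMAD4 and SMAD5 were above 0 once the libraries were centred.

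The inhibitory SMADs, SMAD6 and SMAD7, are induced by the pathway and block it at the receptors. SMAD6 had an FPKM of 14.1 and 10.5 in WT and of 7.03 and 17.3 in enh-/- libraries, so the enh-/- values lay on either side of both WT values. SMAD7 had 9.59 and 7.50 in WT and 7.51 and 10.1 in enh-/- libraries. Neither differed between genotypes beyond the spread of its libraries (log2 fold changes of −0.12 for SMAD6 and 0.04 for SMAD7, adjusted p = 0.891 and 0.95, limma).

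Of the ubiquitin ligases and corepressors, SMURF2 lay below in both enh-/- libraries as deposited, beside 37.5% of all tested genes, and the others overlapped. With centring SMURF2 overlapped, while SMURF1 and SKI lay above in both enh-/- libraries, beside 28.1% of all tested genes. With rescaling to the same total SMURF2 lay below, beside 36.2% of all tested genes, and SMURF1 and SKI above, beside 16.4%. SMURF2, a ubiquitin ligase that marks receptors and SMADs for degradation, had an FPKM of 8.88 and 10.8 in WT and of 6.30 and 7.55 in enh-/- libraries (log2 fold change −0.45, standard error 0.23, adjusted p = 0.312, limma). The genes tested on chromosome 17, where SMURF2 lies, had a median of −0.47, and what part this has in SMURF2 was not tested. The related ligase SMURF1 had 6.09 and 5.89 in WT and 7.62 and 5.70 in enh-/- libraries (log2 fold change 0.12). Both ligase genes share exonic bases with a gene on the other strand, SMURF2 with CEP95 and SMURF1 with TRRAP. SKI and SKIL encode corepressors that bind SMADs on DNA. SKI had 2.43 and 2.80 in WT and 3.28 and 2.61 in enh-/- libraries, and SKIL had 21.5 and 12.3 in WT and 12.9 and 13.3 in enh-/- libraries. The high value of SKIL was that of WT library 1 alone (log2 fold change −0.30, adjusted p = 0.603, limma).

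None of the 5 target genes passed the threshold, and in all 5 the genotypes overlapped as deposited, while PMEPA1 lay above in both enh-/- libraries with centring, beside 28.1% of all tested genes. ID1, ID2 and ID3, inhibitors of basic helix-loop-helix factors, are direct targets of BMP signalling. ID1 had an FPKM of 209 and 93.3 in WT and of 208 and 178 in enh-/- libraries (log2 fold change 0.46, standard error 0.38, adjusted p = 0.527, limma). ID2 had 20.2 and 7.05 in WT and 12.7 and 13.9 in enh-/- libraries (log2 fold change 0.13, adjusted p = 0.895, limma). ID3 had 257 and 183 in WT and 172 and 194 in enh-/- libraries (log2 fold change −0.25, adjusted p = 0.605, limma). The widest gap for ID1 and ID2 was thus between the WT libraries, where library 2 was lower by 1.15 and 1.40 on the log2 scale. A value as low as that was found in 1.19% of all tested genes for ID1 and in 0.777% for ID2. TGFBI, a matrix protein induced by TGF-β, had 7.59 and 6.38 in WT and 8.88 and 4.32 in enh-/- libraries, and PMEPA1, a feedback inhibitor of TGF-β signalling, had 5.52 and 5.23 in WT and 6.07 and 5.33 in enh-/- libraries. Their log2 fold changes were −0.13 and 0.07.

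The EMT transcription factors and N-cadherin had no common direction, with 3 log2 fold changes below 0 and 3 above 0, and none passed the threshold. TWIST1 had an FPKM of 5.47 and 4.55 in WT and of 3.61 and 1.91 in enh-/- libraries (log2 fold change −0.71, standard error 0.29, adjusted p = 0.233, limma). SNAI1, which encodes SNAIL, had 0.740 and 0.886 in WT and 3.08 and 1.21 in enh-/- libraries (log2 fold change 0.73, standard error 0.36, adjusted p = 0.294, limma). For TWIST1 both enh-/- libraries lay below both WT libraries, beside 37.5% of all tested genes. For SNAI1 both lay above, beside 15.1%, and in each gene the enh-/- libraries lay well apart. SNAI1 entered the fit only through its enh-/- libraries, so a difference was built in and its values are a description. ZEB1 had 17.9 and 11.5 in WT and 12.7 and 7.28 in enh-/- libraries (log2 fold change −0.53, standard error 0.33, adjusted p = 0.397, limma). ZEB2 had 2.86 and 3.78 in WT and 3.75 and 4.24 in enh-/- libraries (log2 fold change 0.22, adjusted p = 0.654, limma). SNAI2, which encodes SLUG, had 8.39 and 2.17 in WT and 4.45 and 8.41 in enh-/- libraries (log2 fold change 0.39, standard error 0.52, adjusted p = 0.71, limma). ZEB1, ZEB2 and SNAI2 overlapped between genotypes as deposited, while ZEB2 lay above with centring and ZEB1 below with rescaling, and SNAI2 had the widest WT spread of the members. CDH2, or N-cadherin, a cell adhesion protein gained in EMT, had 5.05 and 12.2 in WT and 4.53 and 3.69 in enh-/- libraries. CDH2 had a log2 fold change of −0.81 with a standard error of 0.38 (adjusted p = 0.277, limma), which was −0.25 without WT library 2.

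**Figure D3:**
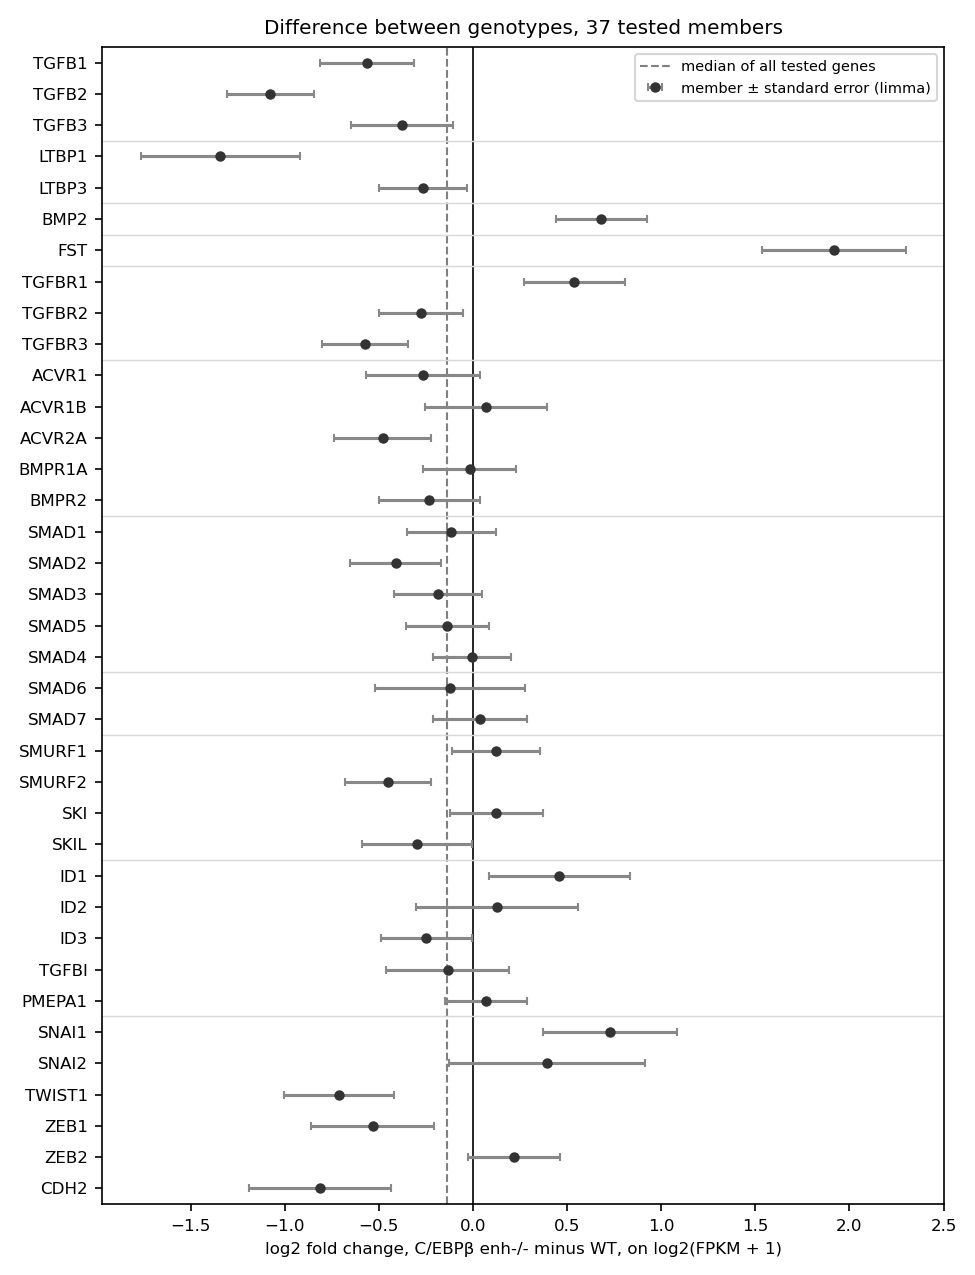
Log2 fold change, C/EBPβ enh-/- minus WT on log2(FPKM + 1), of the 37 tested members (points) with the limma standard error (bars), grouped by role, and the median of all tested genes (dashed, −0.14). FST is farthest to the right at 1.92 and LTBP1 farthest to the left at −1.34, and SMAD1, SMAD3 and SMAD5 lie near the dashed line.

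Markers of the 2 cell states between which EMT moves were read beside these factors. The 6 mesenchymal markers summed to an FPKM of 552 to 787 in WT and 314 to 340 in enh-/- libraries. Most of that sum was S100A4, at 315 and 471 in WT and at 119 and 196 in enh-/- libraries (log2 fold change −1.33, adjusted p = 0.0903, limma), and VIM (vimentin), at 232 and 308 in WT and at 190 and 138 in enh-/- libraries (log2 fold change −0.72, adjusted p = 0.181, limma). ACTA2, smooth muscle actin, overlapped between genotypes (log2 fold change −0.03). The 9 epithelial markers summed to 672 to 814 in WT and 260 to 265 in enh-/- libraries, most of it the keratins KRT18 and KRT8. KRT18 had 416 and 461 in WT and 155 and 148 in enh-/- libraries and fell by 1.52 on the log2 scale (standard error 0.20, adjusted p = 0.0243, limma). KRT8 had 231 and 335 in WT and 82.6 and 90.0 in enh-/- libraries and fell by 1.68 (standard error 0.25, adjusted p = 0.0325, limma). The adjusted p of KRT18 and KRT8 was between 0.101 and 0.215 when any single library was left out and 0.0548 and 0.0673 with the libraries rescaled to the same total, and 0.207 and 0.481 without the filter on low values, so neither call held there. The call of KRT18 was also lost with the replicate block (adjusted p = 0.0524, limma) and that of KRT8 with centring (adjusted p = 0.0607, limma). Both keratins have pseudogene copies and their gene bounds overlap on opposite strands, so the split of reads between copies is uncertain. DSP, a desmosomal protein, overlapped between genotypes (log2 fold change 0.21). CDH1 (E-cadherin) and EPCAM, picked after their values were seen, did not exceed 0.00811 and 0.000547 in any library, so these defining epithelial genes were near 0 in both genotypes.

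The difference between genotype means was set against the larger of the 2 differences between libraries of one genotype. It was larger in 11 of the 37 members (29.7%) and in 40.3% of all tested genes. The members' share was thus below that of all tested genes. These 11 were TGFB1, TGFB2, TGFB3, LTBP3, BMP2, FST, TGFBR2, TGFBR3, ACVR2A, SMURF2 and TWIST1. Of these, FST entered the fit only through its enh-/- libraries, so a difference was built in. Among all 37 members, 28 were lower in WT library 2 than in WT library 1, against 6113 of the 12491 tested genes. All 5 target genes and both inhibitory SMADs were among the 28.

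**Figure D4:**
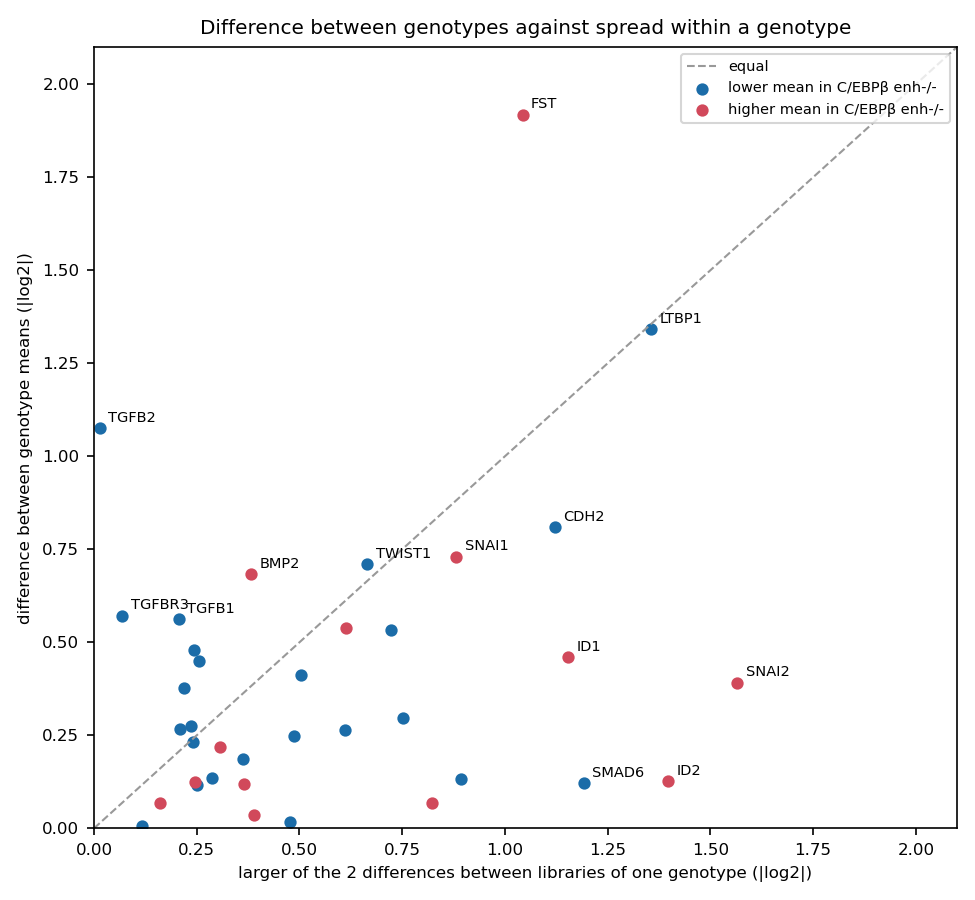
Size of the difference between genotype means against the larger difference between libraries of one genotype for the 37 tested members, both on log2(FPKM + 1), with the line of equality dashed. TGFB2, FST, BMP2, TGFBR3 and TGFB1 lie above the line, and SNAI2, ID2, SMAD6 and ID1 lie well below it.

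Other genes of the pathway were taken from a list of 73 names, of which 72 matched a gene entry and 42 were tested. Of the 42, 0 were lower and 1 was higher in limma after adjustment, and at an unadjusted p under 0.05, 9 were lower and 2 were higher. All tested genes gave 1.46% and 20.8% for the same rules in either direction. Their median log2 fold change was −0.16. The gene past the threshold was NEO1 (neogenin, a receptor for repulsive guidance molecules that also takes part in BMP signalling). NEO1 had an FPKM of 0.153 and 0.255 in WT and of 31.1 and 19.3 in enh-/- libraries, which is a log2 fold change of 4.41 with a standard error of 0.28 (adjusted p = 0.00197, limma). NEO1 reached the filter only through the enh-/- libraries, its WT mean being 0.204, so a difference was built into its entry. Without that filter NEO1 did not pass the threshold. Without WT library 1 and without WT library 2 the adjusted p of NEO1 was 0.0524 and 0.0639 (limma), while its log2 fold change stayed between 4.08 and 4.74. Among the 5 genes of this list with the highest levels, GDF15, a stress-induced ligand of the family, had 107 and 79.7 in WT and 337 and 65.9 in enh-/- libraries, its high value being that of enh-/- library 1 alone. The other high genes were FSTL1, STRAP, FKBP1A and STUB1, with log2 fold changes of −0.17, −0.05, −0.32 and −0.47, none past the threshold. BAMBI, a decoy receptor that dampens TGF-β signalling, was picked after its values were seen, because it passed the threshold under both added fits. BAMBI had 12.1 and 12.3 in WT and 4.01 and 5.57 in enh-/- libraries (log2 fold change −1.20, standard error 0.24, adjusted p = 0.0649, limma).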

How the data were processed

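The authors deposited 1 FPKM value per gene and library. The submitters' processing notes name TopHat2 2.0.13, Cufflinks, edgeR and the build hg19 (GRCh37), without saying which step each served. Whether libraries were scaled to each other or strand was kept is not given in the sources used here. Each library held 57815 gene entries, 57768 without the Y copies of pseudoautosomal genes, and 55535 of these matched a GENCODE symbol. FPKM totals were 484073 to 614111 per library, and the 5 highest genes held 18.8% to 35.1%. Depth, read from the steps of low values, was about 21700000 to 48100000 fragments. It is approximate, since only 46.5% to 50.3% of such values came within 0.1 of a whole fragment, and no counts were recovered. The descriptions put all 4 libraries in 1 flow cell lane.

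Values were transformed as log2(FPKM + 1). The 12491 genes whose FPKM averaged 1 or more were compared by limma 3.58.1 under R 4.3.3 (eBayes, trend on the mean, two-sided), without a replicate block, with Benjamini-Hochberg adjustment over all tested genes and a threshold of 0.05. Simulated data with known changes were used to test the fit. With 2 libraries per genotype, their number limits the precision. The members and the lists were chosen with earlier results of these data known. The text names all 41 members, CEBPB, the genes past the threshold and the 5 highest genes of the wider pathway list, and the 3 highest markers of each cell type. Some items are not reported here. Genes outside this rule are said to be picked after seeing values. The alternatives left out the trend, the filter on low values or each library in turn, set the pseudocount to 0.1 or the least mean FPKM to 5, added the replicate block, and rescaled or median-centred the libraries. Fits of protein-coding genes and without genes listed at 0 in any library were chosen after seeing the data. Promoters came from RefSeq (GRCh38.p14), other coordinates from GENCODE on GRCh37. Figures were drawn in Python 3.11.15.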

Additional observations from a re-analysis of the deposited data

How the results depend on the processing

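Of the 37 tested members, 22 kept the sign of their log2 fold change in every alternative run and 15 did not. TGFB2 and FST passed the threshold in at least 1 alternative, only in fits added after seeing the data, and FST had entered through its high group. Centring on the median turned the medians to 0.038 for the members, 0.034 for all tested genes and 0.012 for the wider list. It also turned the sign of BMPR1A (0.16), SMAD1 (0.059), SMAD5 (0.038), SMAD4 (0.17), SMAD6 (0.053), TGFBI (0.040), ATOH8 (0.021), FSTL1 (0.0018), STRAP (0.12) and ACTA2 (0.15), by its own construction. Among protein-coding genes alone, 1 member was lower and 1 was higher, 457 of all genes were lower and 60 higher, and 2 of the wider list were lower, BAMBI and GDF11 (adjusted p = 0.033 and 0.0454, limma), GDF11 being picked after its values were seen. S100A4 also passed there (adjusted p = 0.0428, limma). Without genes listed at 0 in any library, 1 member was higher, 324 of all genes were lower and 47 higher, and 1 of the wider list was lower, BAMBI. Without a filter on low values limma called 0 genes lower and 0 higher, the wider list had 0 higher, and the medians were 0 for all genes and −0.0073 for the wider list. At a least mean FPKM of 5, 20 genes were higher. Rescaling left 61 and centring 68 of all genes lower.

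Replicate numbers 1 and 2 occur in the labels of both genotypes, but same-numbered libraries did not deviate together (Pearson's r = 0.00945 across 12491 genes, which are not independent replicates). Blocking on the replicate number, 93 genes were lower and no member was called lower or higher (0 and 0), and KRT18 had an adjusted p of 0.0524 (limma).

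When a library was left out, the lone library of its genotype was assumed to vary like the others. The count of all genes was then 9 to 22 lower and 3 to 20 higher, that of the wider list 0 to 1 higher, and the median −0.27 to −0.0084 for the wider list and −0.25 to −0.024 for the members. Ranges across 0 were −0.57 to 0.041 for ACVR1, −0.34 to 0.48 for ACVR1B, −0.26 to 0.22 for BMPR1A, −0.24 to 0.0099 for SMAD1, −0.28 to 0.0073 for SMAD5, −0.063 to 0.053 for SMAD4, −0.72 to 0.47 for SMAD6, −0.16 to 0.23 for SMAD7, −0.062 to 0.30 for SMURF1, −0.67 to 0.0797 for SKIL, −0.12 to 1.04 for ID1, −0.57 to 0.83 for ID2, −0.58 to 0.31 for TGFBI, −0.011 to 0.15 for PMEPA1 and −0.39 to 1.17 for SNAI2. Outside the members, they were −0.57 to 0.23 for FSTL1, −0.48 to 1.86 for GDF15, −0.25 to 0.14 for STRAP, −1.01 to 0.70 for ATOH8, −1.02 to 0.14 for NOG, −0.63 to 1.02 for SMAD9, −0.50 to 0.45 for ACTA2 and −0.0027 to 0.41 for DSP. Some ranges that kept their sign were also wide, as for SNAI1 (0.29 to 1.17), TWIST1 (−1.04 to −0.38), ZEB1 (−0.89 to −0.17) and TGFBR1 (0.23 to 0.84). The cause of these changes was not tested.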

Other observations

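Further genes of the BMP branch were read after the spread of ID1 and ID2 between the WT libraries had been seen, so they are no independent sign of it. ATOH8, a transcription factor gene induced by BMPs, had an FPKM of 12.97 and 3.27 in WT libraries 1 and 2 and of 3.56 and 9.56 in C/EBPβ enh-/- libraries 1 and 2. SMAD9, a receptor-regulated SMAD of the BMP branch, had 5.18 and 0.969 in WT and 2.24 and 3.92 in C/EBPβ enh-/- libraries. NOG, which encodes the BMP antagonist noggin, had 6.01 and 2.15 in WT and 2.18 and 2.78 in C/EBPβ enh-/- libraries. In each of these genes the genotypes overlapped and WT library 1 held the highest value. WT library 2 was below WT library 1, with differences of −1.71 for ATOH8, −1.65 for SMAD9 and −1.16 for NOG on the log2 scale. Values as low as these were found in 0.368%, 0.384% and 1.18% of all tested genes. Over the wider list these genes come from, 22 of the 42 tested genes were lower in WT library 2, with a median difference of −0.038. Of the members, SNAI2 was at −1.57, SKIL at −0.75, PMEPA1 at −0.07 and CDH2, in the other direction, at 1.122 in the same comparison, while the median of all tested genes was 0.0074. What sets the WT libraries apart in these genes was not tested.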
